A study of Mus musculus with 4 samples.

Results

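The nuclei described here are mouse testis nuclei with RNA of Kcnb2, Dscaml1, Syn2 and Col9a3, taken from single-nucleus RNA sequencing of whole testes. They were chosen from their own counts. A barcode was kept when it held at least 1000 unique molecular identifiers (UMIs, each counting 1 captured RNA molecule) and 500 to 5000 detected genes. It also had to show at least 1 UMI of at least 4 of 10 selecting genes (Kcnb2, Col9a3, Gm31508, Dscaml1, Gm48312, Gm47448, Gm2912, Syn2, Gm11234 and Gm39204) and of fewer than 3 of 8 excluding genes (Fmo5, Ppm1l, Efemp1, Gm33696, Impa2, Myo15, Efcab1 and Tmem132d). By this rule 1525 of 36152 nuclei were members, with 456 of 9742 in wild-type (WT) library 1, 369 of 8057 in WT library 2, 306 of 8509 in Dhx37-/- library 1 and 394 of 9844 in Dhx37-/- library 2.

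The study compared testes of WT mice with testes lacking Dhx37 in Sertoli cells, the somatic cells that nurse the germ cells, at 8 weeks of age, with 2 libraries per genotype. Dhx37 encodes a DEAH-box RNA helicase that acts in ribosome assembly. In the Dhx37-/- mice both Dhx37 alleles carry loxP sites and an AMH-Cre transgene, whose promoter is active in Sertoli cells, removes the flanked exon, so the germ cells described here were not the targeted cells. The labels do not say how many animals went into a library, and the p-values below therefore measure only the spread between libraries.

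Spermatids are the haploid cells that meiosis leaves behind, and each carries either an X or a Y chromosome. Round spermatids first transcribe genes of the acrosome, the enzyme-filled cap of the sperm head, and of the tail. As the nucleus elongates, histones give way to transition proteins and then to protamines, the small basic proteins that pack sperm DNA. Sister spermatids stay joined by cytoplasmic bridges through which many transcripts can pass, while a nucleus is separated from that shared cytoplasm.

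The libraries held 51797891 to 75611263 UMIs over all barcodes, and the median member held 3275, 3701, 4091 and 4175 UMIs in WT libraries 1 and 2 and Dhx37-/- libraries 1 and 2. The Dhx37-/- members were thus the deeper ones, and levels below are given as CPM, the UMIs of a gene summed over nuclei and scaled to the same total in every library and set. Doublet scoring marked 6.50% to 8.88% of the members against 4.17% to 4.54% of all nuclei, and 1 barcode was shared by members of different libraries. Free RNA, read from barcodes ranked 45000 to 90000 by UMI count, is given where it bears on a value.

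The members lay on a continuum with no gap at either limit. Another 1092 nuclei had 3 of the selecting genes with fewer than 3 excluding genes, and 935 had at least 4 selecting genes with exactly 3 excluding genes. Inside the limits, 715 members had exactly 4 selecting genes, and 354, 474 and 697 members had 0, 1 and 2 of the excluding genes. Of all nuclei with at least 4 selecting genes, 30.2% and 23.2% were members in WT and 19.2% and 29.1% in Dhx37-/-. Only 21 members had 8 or more selecting genes.

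For comparison 3 other sets of nuclei were drawn, called spermatid sets below. Each rested only on the genes given here, with no requirement that a nucleus be haploid, so other cells were not kept out by rule. The first had UMIs of both Foxp2 and Cntn3 (3501 nuclei), the second of both Rad51b and Pdgfc (3672 nuclei), both below the limits for the 10 and the 8 genes, and the third had at least 4 of the 8 excluding genes (5104 nuclei). Leydig nuclei (1446), the steroid-making somatic cells, served as cells that should lack spermatid RNA. Since the members were defined by their own RNA, levels between sets are a description with no test.

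The selecting genes were about as high in the nuclei with the excluding genes (3791 CPM summed) as in the members (3905). Kcnb2, a subunit of a voltage-gated potassium channel, was at 1166 and 569 CPM in the WT members and at 686 and 694 in the Dhx37-/- members. Pooled, it was at 789 in the members, 997 in the set with 4 or more excluding genes and 19.5 and 17.8 in the other spermatid sets. Dscaml1, a cell adhesion protein of the immunoglobulin family, was at 1213, 885, 809 and 870 in the 4 libraries and at 952 against 913 pooled. Syn2, a synapsin that coats synaptic vesicles in neurons, was at 379 against 416, and Col9a3, a chain of cartilage collagen, at 346 against 281. In all, 3 of the 10 selecting genes were higher in the set with the excluding genes, so those genes alone do not separate the members from that set. A UMI of Dscaml1 was present in 91.5% of members and in 6.78% of Leydig nuclei, and one of Kcnb2 in 56.3% and 4.15%. Members had at least 4 selecting genes and Leydig nuclei were drawn with fewer than 4. Part of that contrast was therefore fixed by the choice of nuclei. The 8 excluding genes summed to 699 CPM in the members and 3923 in the set with the excluding genes, as the rule requires.

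Of the 20 genes with the highest fold over all other nuclei, 9 were selecting genes and 12 were unnamed gene models. The named genes outside the rule were Crb1, a cell polarity protein (3.72-fold), Pcdh10, a protocadherin (3.67-fold), Thsd4, an extracellular matrix protein (3.62-fold), and Zc2hc1b (3.50-fold). Crb1 was at 1044, 668, 692 and 694 CPM in WT 1, WT 2, Dhx37-/- 1 and Dhx37-/- 2, against 526 pooled in the set with the excluding genes. WT library 1 stood apart for several of these genes. Pcdh10 was at 137 there and at 504, 419 and 283 in the others, and the gene model Gm49560 was at 280 there and at 1225, 701 and 513 in the others. All 4 libraries placed both genes higher in the members than in the 3 other spermatid sets.

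**Figure D1:**
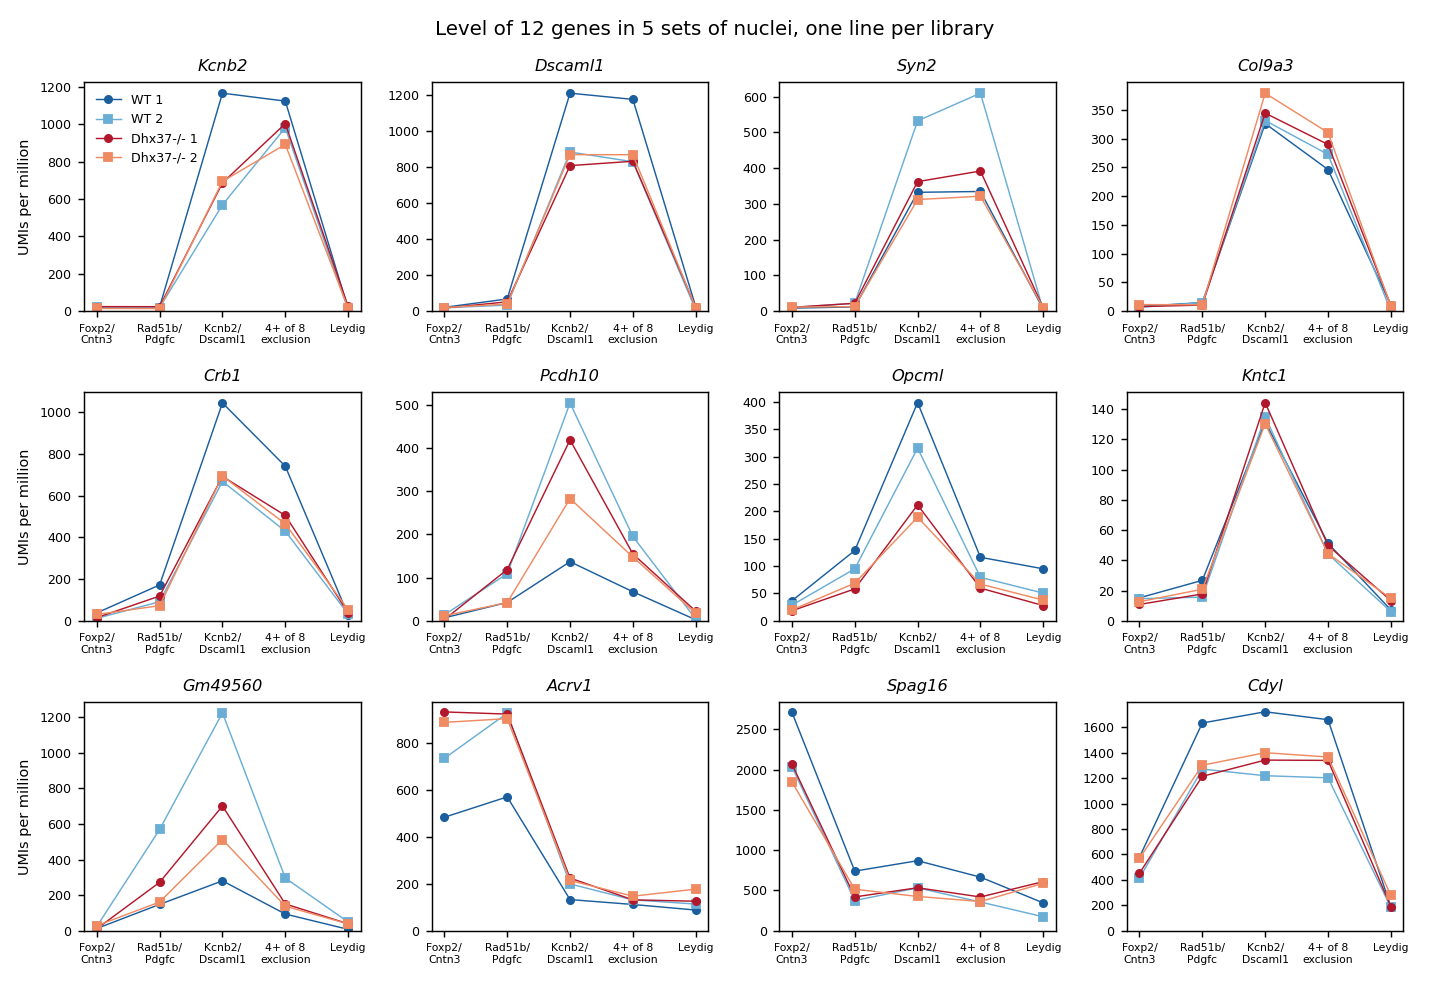
Level of 12 genes in CPM (vertical axes, linear) in 5 sets of nuclei (horizontal axes), with 1 line and marker per library. The selecting genes stay high in the nuclei with 4 or more excluding genes, Crb1, Pcdh10, Opcml, Kntc1 and Gm49560 are highest in the members in each of the 4 libraries, Acrv1 is lower in the members than in both sets to their left, and Spag16 is lower than in the Foxp2/Cntn3 set.

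Genes that were highest in the members were then counted, a selection made on the pooled values. Among 4012 genes at 50 or more CPM, 99 stood at least 1.5-fold above each of the 3 other spermatid sets, and 98 of these were above all 3 sets in 4 of 4 libraries. Opcml, a GPI-anchored adhesion protein, had the largest fold over the next set among the 99 with a pseudocount of 10 CPM, at 280 CPM against 78.0, 26.3 and 89.9 in the set with the excluding genes, the Foxp2/Cntn3 set and the Rad51b/Pdgfc set. Cntnap4, a neurexin-related protein, was at 73.5 against 17.4, 12.9 and 21.6. Kntc1, a kinetochore protein of the spindle checkpoint, varied little between libraries, at 131, 135, 144 and 130 in the 4 libraries against 51.2, 44.1, 49.8 and 44.4 in the set with the excluding genes. Elmo1, which helps activate the small GTPase Rac, reached 1133, 877, 982 and 1086 in the members and was also present in Leydig nuclei at 438. Nlgn1, a neuroligin, was at 192 against 43.9 in the set with the excluding genes.

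The neuronal names of these genes extended to a list of 39 genes of ion channels, synapse and cell adhesion. Together they made up 23148, 16976, 18232 and 17993 CPM in the members and 14532, 13546, 11628 and 12338 in the Foxp2/Cntn3 set. The list holds the selecting genes Kcnb2, Dscaml1 and Syn2 and also Cntn3, which drew the Foxp2/Cntn3 set, so part of the difference was fixed by the choice of nuclei. Ctnna3, an alpha-catenin, alone gave 11345, 7599, 8837 and 9268. The Rad51b/Pdgfc set was as high, at 19896 pooled against 19182, so the sum does not set the members apart. Within it, Kcnip4, a potassium channel partner, was at 981 in the members, 1067 in the Foxp2/Cntn3 set, 1538 in the Rad51b/Pdgfc set and 301 in the set with the excluding genes. Free RNA held 1984 to 8914 of the list, less than the members in every library.

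Some lists of known spermatid genes placed the members between the Rad51b/Pdgfc set and the nuclei with the excluding genes. This held for the pooled manchette, acrosome, histone exchange and protamine sums, and not for the other lists. The manchette and acrosome sums were clearly nearer to the nuclei with the excluding genes, and the histone exchange and protamine sums were about midway. The flagellum sum was near-equal to that of the nuclei with the excluding genes. The cytoplasmic late list, given below, did not follow this order, with 3845 in the members against 4035 in the Rad51b/Pdgfc set and 4268 in the nuclei with the excluding genes. Round spermatid factors, also given below, were near level. A list of 20 sex-linked spermatid genes was highest in the members in every library. Pooled, it was at 1013 there, 912 in the nuclei with the excluding genes, 836 in the Rad51b/Pdgfc set and 1427 in free RNA. The manchette is the microtubule skirt around the elongating nucleus, and its genes together with those of axoneme assembly (24 genes) summed to 4337 CPM in the members. The sums were 3817 in the set with the excluding genes, 5280 in the Rad51b/Pdgfc set and 8547 in the Foxp2/Cntn3 set. Spag16, of the axoneme, showed this difference, with 591 in the members against 2169 in the Foxp2/Cntn3 set. Meig1, which acts in manchette transport, was near level at 1112 and 951. Hook1, a manchette linker, was at 578 against 720, and Ccdc38 was at 367 against 112.

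The flagellum list (37 genes) followed the same order apart from near-equal sums in the members and the set with the excluding genes. It summed to 6161, 5665, 6200 and 6367 in the members of the 4 libraries, to 6140 pooled in the set with the excluding genes and to 11026 in the Foxp2/Cntn3 set. Leydig nuclei held 3439 of the flagellum, 2893 of the manchette, 1386 of the acrosome and 1660 of the histone exchange list, all pooled. Free RNA held 9666, 7244, 4978 and 4202 of them, each above the pooled members. The part of this background in the member sums was not tested. The 5 most abundant flagellum genes in the members, picked for that level, are given beside the Foxp2/Cntn3 set as a description. These 5 were above that set while the list sum was below it, so they do not show which genes lowered the sum. Each was also present in free RNA. There Smcp (555, 1199, 1387 and 1581 in the 4 libraries) and Gapdhs (406, 441, 689 and 627) were above the members in every library. Odf2, of the outer dense fibres, was at 955 against 495 in the Foxp2/Cntn3 set. Ropn1, of the fibrous sheath, was at 529 against 388, Smcp, of the mitochondrial sheath, at 518 against 335, Tcp11 at 413 against 366 and Gapdhs, the sperm form of a glycolytic enzyme, at 376 against 263.

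The acrosome and head list (26 of its 27 genes were in the files) summed to 3050 in the members, 2729 in the set with the excluding genes, 4461 in the Rad51b/Pdgfc set and 4969 in the Foxp2/Cntn3 set. Acrv1, an acrosomal matrix protein, was at 133, 199, 224 and 214 in the members and at 819 pooled in the Rad51b/Pdgfc set. Spaca1, an acrosomal membrane protein, was at 164 against 299. Spata16, needed for acrosome formation, went the other way at 524 against 171, as did Fam209 at 276 against 208. Spaca6, of sperm-egg fusion, was at 188 against 249 and Spag4, of the nuclear envelope, at 177 against 163.

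Histone exchange genes (18) summed to 4009 in the members against 2603 in the Foxp2/Cntn3 set, 3676 in the Rad51b/Pdgfc set and 4302 in the set with the excluding genes. Cdyl, a chromodomain protein, was at 1431 against 509 in the Foxp2/Cntn3 set, and Chd5, a remodeller required for histone removal, at 769 against 536. Hmgb4 was at 382 against 200, and the spermatid linker histones H1f9 and H1f7 were at 272 against 136 and at 226 against 79.4. Transcription factors of the round spermatid had a similar total in every spermatid set, with single genes that differed. Crem, the master activator of that programme, was at 719, and Rfx3 and Fhl5 were at 787 and 319, within a list total of 2995 in the members and 2939 to 3209 in the 3 other sets. Tcfl5 was at 247 in the members against 57.4 in the Foxp2/Cntn3 set, and Sox5 at 247 against 897.

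Protamine and transition protein genes (Prm1, Prm2, Prm3, Tnp1 and Tnp2) summed to 12360 in the members, between the 4644 and 4736 of the Foxp2/Cntn3 and Rad51b/Pdgfc sets and the 19772 of the nuclei with the excluding genes. These transcripts were also abundant in free RNA, at 32831, and Leydig nuclei held 4922. A UMI of Prm1 was present in 98.9% of Leydig nuclei. Library by library, the Foxp2/Cntn3 set held 3064, 3487, 6969 and 5645, not far above the 2579, 2736, 6779 and 4538 of Leydig nuclei, whereas the members held 9216, 10516, 15131 and 14701. Among the members the sum followed the number of excluding genes. It was 7766, 8288, 12357 and 12929 in the 4 libraries with 0 of them, and 9936, 11616, 17949 and 16500 with 2 of them, so it was higher with 2 in 4 of 4 libraries. Acrv1 ran the other way, with 255 pooled at 0 excluding genes and 162 at 2. Kcnb2 was at 457 with 0 and 1010 with 2, but it is itself a selecting gene, so its level here was conditioned by the rule. The ordering by excluding genes also comes from the rule and is only a description.

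Meiotic prophase genes (18) summed to 758 in the members, 727 in the set with the excluding genes, 1247 in the Foxp2/Cntn3 set and 1953 in free RNA. Sycp1, of the synaptonemal complex, was at 69.9 in the members against 539 in the Foxp2/Cntn3 set, below its free RNA level of 300. The gap of this gene was nearly as large as that of the list between these 2 sets. Syce2 of the same complex was the exception with 214, 204, 250 and 268 in the 4 libraries against 82.5 pooled in the Foxp2/Cntn3 set and 56.8 in Leydig nuclei. Sycp2 was at 64.0, Piwil1 at 60.5 and Syce1 at 58.7. The cytoplasmic late list (21 genes) summed to 3845 in the members and 4358 in the Foxp2/Cntn3 set, led by Ldhc, the sperm lactate dehydrogenase, at 1486, Gsg1 at 729, Spata18 at 346, Oaz3 at 288 and Ttc24 at 138. Its free RNA sum was 8047.

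**Figure D2:**
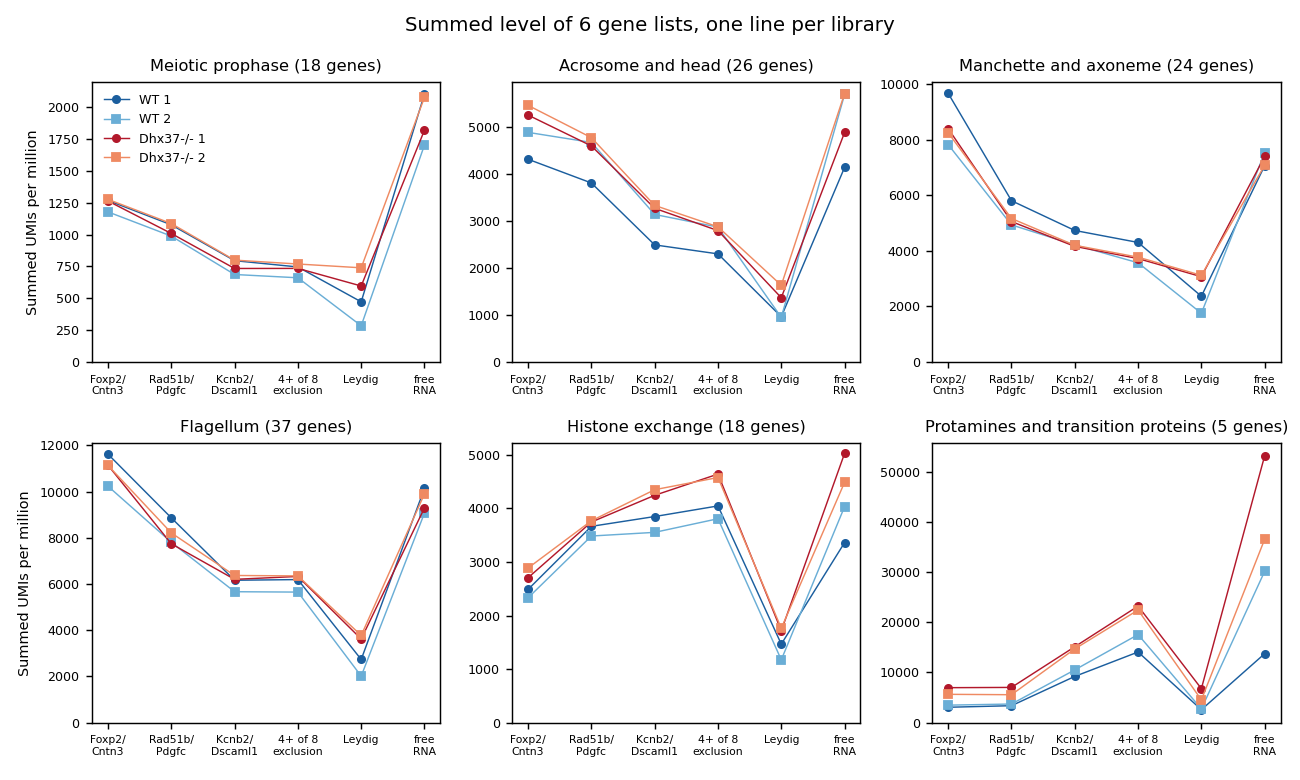
Summed level of 6 gene lists in CPM (vertical axes, linear) in 5 sets of nuclei and in free RNA, with 1 line and marker per library. Manchette, flagellum and acrosome sums are lower in the members (4337, 6113 and 3050 pooled) than in the Foxp2/Cntn3 set (8547, 11026 and 4969), while histone exchange and protamine sums are higher.

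Markers of other testis cells were low in the members. Sertoli markers (10 of 10 with a UMI) summed to 142 to 326 CPM in the 4 libraries, with Wt1 at 5.41 and Sox9 at 2.39 pooled. Leydig markers (8 of 8) summed to 47.9 to 221, against 10783 in the Leydig set, with Cyp11a1 at 17.8. Macrophage markers summed to 63.7 to 148 with Csf1r at 3.66, endothelial markers to 75.9 to 195 with Pecam1 at 2.39 and none of its UMIs in WT library 2, myoid and fibroblast markers to 43.6 to 95.6 with Myh11 at 6.69, and spermatogonial genes to 127 to 147. No marker list was wholly absent.

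The promoters of the leading genes were searched for the short motifs of the factors named above. The window ran from 250 bases before to 50 bases after the start, from RefSeq on GRCm38.p6, and both strands were read. Of the 20 leading genes 11 had a window. The CREM half-site TGACG lay in 1 of them, against 23.0% of all genes with a window, the full site TGACGTCA in 0 against 2.03%, and the RFX half-site GTTGCC in 1, Gm44968, against 14.1%. None of the 5 protamine and transition protein genes held any of these letters in the window. Only these exact letters were searched, so a variant site would have been missed. The leading gene with the CREM half-site was Pcdh10, which held it at -116 and -103 from the start. The first is shown because no other leading gene with a window had these letters, with the motif in capitals (chr3:45378272-45378296, plus strand):
Pcdh10: ggctgccgcgTGACGtaactacttg

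The members divided by sex chromosome. Of the 1525 nuclei, 387 had no UMI of a Y-linked gene, 364 had 1 or 2 and 774 had 3 or more. The share of UMIs from X-linked genes, which the division did not use, had a median of 1.26%, 1.30%, 1.71% and 1.61% in the nuclei with no Y UMI of WT 1, WT 2, Dhx37-/- 1 and Dhx37-/- 2. In the nuclei with 3 or more Y UMIs it was 0.336%, 0.301%, 0.399% and 0.425%. The nuclei with no Y UMI were the shallower ones, with a median of 2766 against 3682 UMIs in WT library 1 and 3421 against 4325 in Dhx37-/- library 1, and a shallow nucleus can miss its Y-linked RNA. Leydig nuclei, which are diploid and hold both chromosomes, did not fall that way, at 1.65%, 2.43%, 1.70% and 2.09% with no Y UMI and 2.83%, 2.32%, 2.68% and 2.66% with 3 or more, higher in all but WT library 2, where only 7 Leydig nuclei had no Y UMI. The 3 other spermatid sets divided in the same way, with medians in WT library 2 of 1.14% and 0.292% in the set with the excluding genes, 1.47% and 0.229% in the Foxp2/Cntn3 set and 1.55% and 0.257% in the Rad51b/Pdgfc set, so the division is not particular to the members. The division was made after the counts had been seen and is given with no test.

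**Figure D3:**
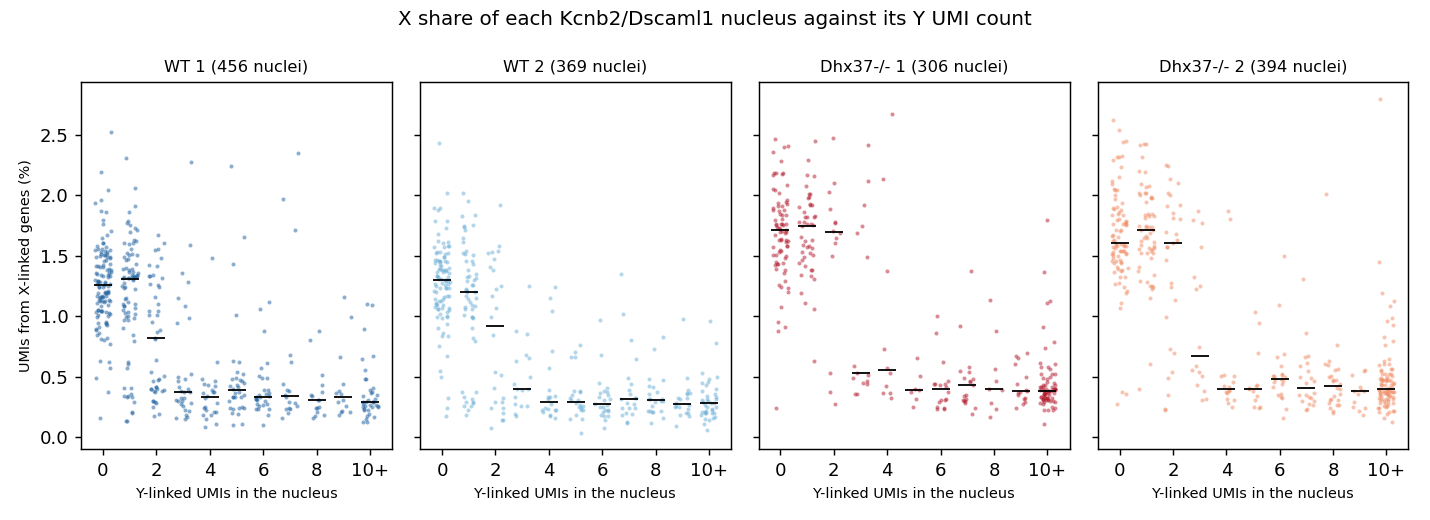
Share of UMIs from X-linked genes in percent (vertical axis) against the number of Y-linked UMIs (horizontal axis, jittered, 10 or more drawn together) for each member nucleus, 1 panel per library, with black bars at the median. The medians over nuclei with 0 Y UMIs are 1.26% to 1.71% and those over nuclei with 3 or more are 0.301% to 0.425%, and nuclei of 1 and 2 Y UMIs spread over both ranges.

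The X-linked genes behaved nearly as a block. Of 91 X-linked genes at a mean of 30 or more CPM, 86 were higher in the nuclei with no Y UMI in 4 of 4 libraries and 51 were more than 2-fold higher in each. Of 5570 autosomal genes, 824 were higher in 4 of 4 libraries and 838 lower, with 0 more than 2-fold higher and 1 more than 2-fold lower in each. Efhc2, a protein of the ciliary microtubules, had the largest difference, at 404, 325, 397 and 345 CPM with no Y UMI against 55.9, 27.5, 36.2 and 39.1 with 3 or more. Fsip2l, related to a fibrous sheath protein, was at 536 against 74.6 pooled, Emd, the nuclear envelope protein emerin, at 243 against 26.5 and Phf8, a histone demethylase, at 312 against 45.9. Akap4, the main scaffold of the fibrous sheath, differed less, at 350 against 124.

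A few X-linked genes were close to even between the groups. Tsga8, a nuclear protein of the haploid spermatid, was at 244, 320, 498 and 330 CPM with no Y UMI and at 198, 293, 420 and 329 with 3 or more. Pgrmc1 was at 35.9 against 31.3 pooled, 1700003E24Rik at 44.0 against 35.6, Gm5941 at 82.1 against 64.7 and Steep1 at 71.8 against 54.4. These 4 and Pak3, at 27.1, 46.1, 80.8 and 48.4 against 46.6, 20.0, 40.0 and 14.3, were the 5 genes not higher in every library. The free RNA level of Tsga8 was 673, above both. On the Y chromosome 6 genes passed the minimum (Zfy2, Usp9y, Gm29044, Eif2s3y, Gm28510 and Zfy1), and Zfy2, a zinc finger factor of spermiogenesis, was the highest at 310, 308, 436 and 373 in the nuclei with 3 or more Y UMIs. Their absence from the other group is the division itself.

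**Figure D4:**
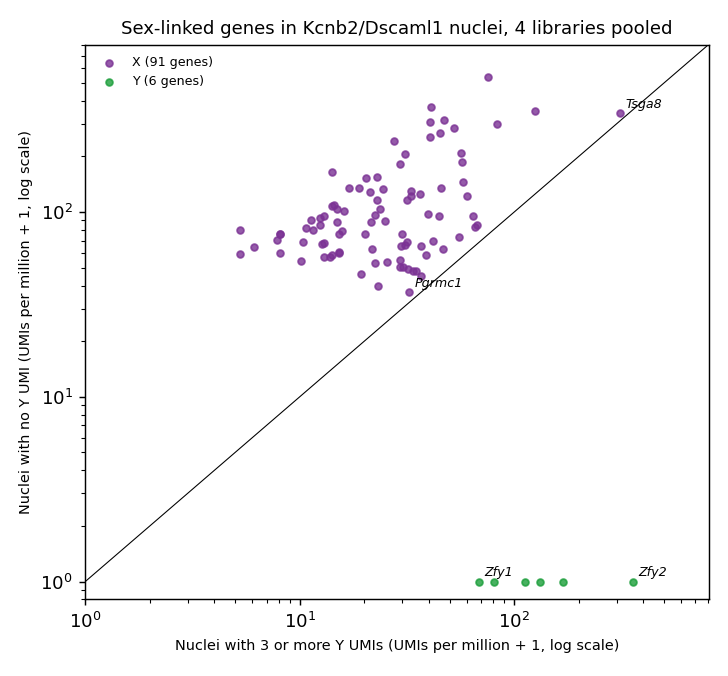
Each point is a sex-linked gene at a mean of 30 or more CPM, with its pooled level plus 1 in member nuclei with no Y UMI (vertical, log scale) against that in nuclei with 3 or more (horizontal, log scale). The X-linked genes lie above the line of equality, Tsga8 lies close to it, and the 6 Y-linked genes sit at 0 on the vertical axis because the division used them.

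Some members had both features. With 3 or more Y UMIs and an X share of at least 0.8%, there were 26, 13, 20 and 25 such nuclei in the 4 libraries. Doublet scoring marked 53.8%, 61.5%, 45.0% and 52.0% of them, against 4.19%, 4.49%, 5.94% and 5.96% of the other members.

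The comparison of genotypes asked whether loss of Dhx37 in Sertoli cells left these germ cell nuclei changed. Dhx37 itself was nearly absent from them, with 1, 11, 8 and 13 UMIs in WT 1, WT 2, Dhx37-/- 1 and Dhx37-/- 2, and the groups overlapped. With 2 libraries per group the smallest p that an exact permutation test can give is 0.33. The members were 4.68% (95% Wilson interval 4.28 to 5.12) and 4.58% (4.14 to 5.06) of WT nuclei and 3.60% (3.22 to 4.01) and 4.00% (3.63 to 4.41) of Dhx37-/- nuclei, intervals that cover counting error only. Both Dhx37-/- shares lay below both WT shares, 3.80% ± 0.287 against 4.63% ± 0.0713 (SD, n = 2), a difference of -0.831 percentage points (exact two-sided permutation test, p = 0.33). As a share of the 4 spermatid sets the members were 10.7% ± 0.0906 against 11.3% ± 0.895 (n = 2, exact permutation p = 0.67), and the difference among all nuclei shrank to -0.218 percentage points when 5 of the selecting genes were required. A share can change because these nuclei or any others became fewer or more.

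Gene by gene, no gene of 12477 tested differed between genotypes at an adjusted p below 0.05 by edgeR's quasi-likelihood test (0% called). At an unadjusted p below 0.05 there were 961 (7.70% of the tested genes), 566 higher (4.54%) and 395 lower (3.17%) in Dhx37-/-, and DESeq2 called 5 at its adjusted threshold. Of the tested genes 46.5% had a higher estimate in Dhx37-/-, 23.6% had both Dhx37-/- libraries above both WT libraries and 16.2% had both below. The outcome turned on the libraries, since edgeR called 1156 genes without WT library 1 and 1883 without WT library 2, fits that give the remaining WT library the spread of the Dhx37-/- pair. That pair was the tighter one, with a correlation of log2 levels of 0.965 across genes against 0.915 for the WT pair, and genes are not independent replicates.

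The genes nearest the threshold on the higher side were Apoe, Ptgds and Defb19. Apoe, an apolipoprotein, was at 19.1 and 14.4 CPM in WT and 74.3 and 106 in Dhx37-/- (log2 fold change 2.38 ± 0.31 SE, edgeR adjusted p = 0.47). Ptgds, prostaglandin D synthase, was at 24.5 and 15.1 against 111 and 84.4 (2.25 ± 0.32, edgeR adjusted p = 0.61), and Defb19, a defensin of Sertoli cells, was at 47.8 and 45.9 against 145 and 110 (1.40 ± 0.25, edgeR adjusted p = 0.63). The groups did not overlap for any of the 3. The Apoe change was 1.04 without the scored doublets and 0.72 with the members drawn after thinning to 1000 UMIs. In free RNA, Apoe was at 88.7 and 117 in WT and 319 and 243 in Dhx37-/-, Ptgds at 96.7 and 112 against 637 and 412, and Defb19 at 180 and 379 against 896 and 630. Free RNA thus moved the same way for each, and its part in the member values was not tested.

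The genes nearest the threshold on the lower side were Gm42826 (130 and 154 against 41.2 and 43.6, log2 fold change -1.78 ± 0.23, edgeR adjusted p = 0.47), Cd8b1, a chain of the T cell co-receptor CD8 (93.2 and 101 against 34.6 and 40.8, -1.40 ± 0.24, edgeR adjusted p = 0.63), and Gm39556 (90.2 and 75.3 against 30.9 and 31.9, -1.44 ± 0.25, edgeR adjusted p = 0.63). All other nuclei showed the same direction, Gm42826 at 143 and 164 in WT against 41.9 and 45.1 in Dhx37-/-, and Cd8b1 at 60.5 and 84.2 against 43.1 and 23.4. Free RNA held Gm42826 at 312 and 244 against 50.6 and 61.5, Cd8b1 at 73.4 and 165 against 52.2 and 35.4 and Gm39556 at 69.0 and 131 against 25.0 and 32.7, and its part was not tested. DESeq2's 5 calls were Apoe, Ptgds, Gm42826, Abcb10, a mitochondrial transporter (155 and 151 against 33.8 and 65.4), and Lars2, the mitochondrial leucyl-tRNA synthetase (193 and 63.7 against 26.5 and 27.4). In free RNA Lars2 was at 315 and 167 against 62.7 and 76.3 and Abcb10 at 126 and 283 against 29.7 and 55.7.

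The protamine and transition protein sum was higher in the Dhx37-/- members. It was 9216 and 10516 CPM in WT and 15131 and 14701 in Dhx37-/-, with no overlap (difference 5050, exact permutation p = 0.33, n = 2 per group). Tnp2, which precedes the protamines on DNA, was at 1370 and 1686 against 3048 and 2826 (log2 fold change 0.91 ± 0.21, edgeR adjusted p = 0.63), and all 5 genes had non-overlapping groups, where 23.6% of tested genes had both Dhx37-/- libraries above both WT libraries. Leydig nuclei moved likewise, from 2579 and 2736 to 6779 and 4538, and free RNA from 13748 and 30168 to 53200 and 36564. The part of that background in the members' difference was not tested. Ribosomal protein genes, singled out after their values were seen, were higher in Dhx37-/- for 78 of 80 tested (46.5% of all tested genes), and 37 of them were higher at an unadjusted p below 0.05 (4.54% of all tested genes) with 0 lower. Their sums were 4852 and 5998 in WT against 8204 and 8180 in Dhx37-/- in the members. All other nuclei moved likewise, at 5411 and 6978 against 9914 and 9305, as did free RNA, at 13164 and 30632 against 40241 and 37082.

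**Figure D5:**
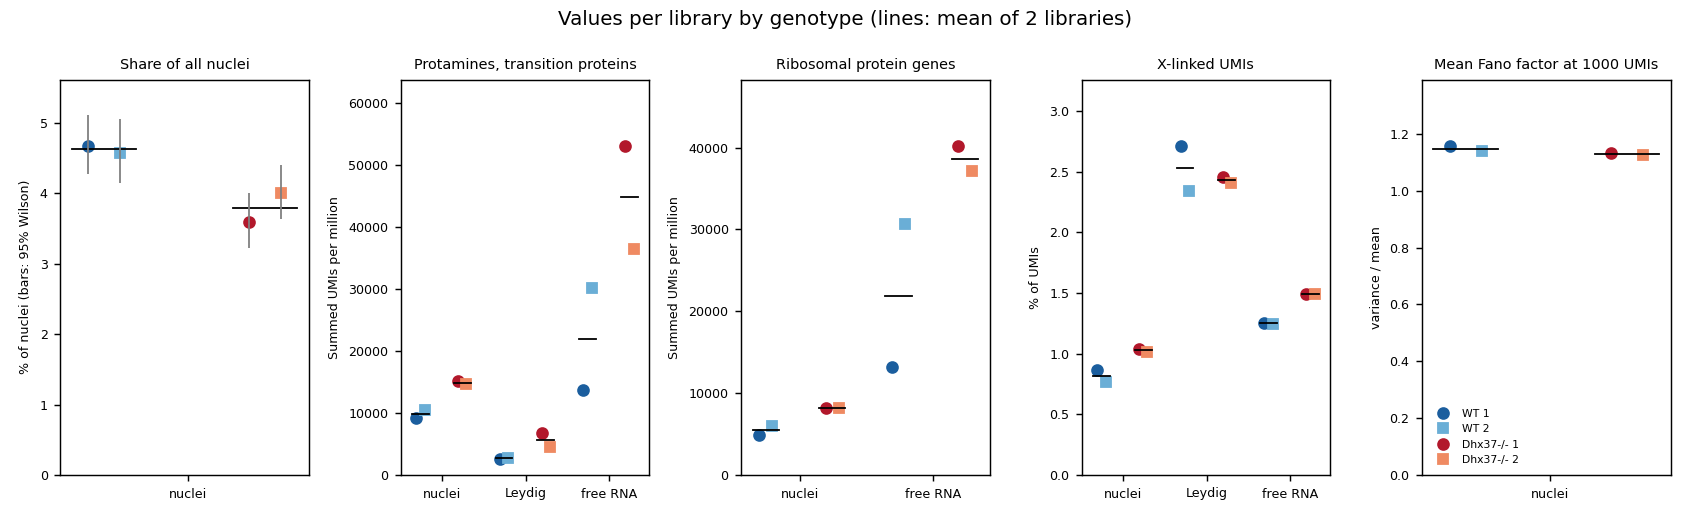
Values per library (points) and the mean of the 2 libraries of a genotype (lines) for the share of nuclei with 95% Wilson intervals, 2 summed gene groups, the X-linked share of UMIs and the mean Fano factor, all axes from 0. The protamine and ribosomal protein sums are higher in Dhx37-/- in the members and in free RNA alike, and the X share is higher in the members and in free RNA but overlaps in Leydig nuclei.

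No list reached an adjusted threshold in any of its genes. The list counts that follow stand beside 4.54% higher and 3.17% lower among all tested genes at an unadjusted p below 0.05. Of 25 acrosome and head genes tested, 5 were higher and 0 lower at an unadjusted p below 0.05, among them Spaca4 (57.9 and 74.0 against 114 and 104) and Spata46 (114 and 140 against 186 and 195), with a list median log2 change of 0.22 against -0.04 for all genes. In Leydig nuclei the list sum was also higher without overlap, at 962 and 948 against 1367 and 1632, and the part of that background was not tested. Of 15 histone exchange genes 4 were higher, Tssk6, H1f9, H2bl1 and Hmgb4, and 0 lower (median 0.24). The list sum moved the same way without overlap in free RNA, 3362 and 4034 against 5028 and 4488, and in Leydig nuclei, 1466 and 1173 against 1715 and 1762. Hmgb4, at 277 and 327 against 449 and 473 in the members, was at 325 and 712 against 1128 and 942 in free RNA, whose part in the list was not tested. Of 37 channel, synapse and adhesion genes, which include the selecting genes Kcnb2, Dscaml1 and Syn2, 0 were higher and 7 lower (median -0.28), none of the 7 a selecting gene, while the summed level overlapped between genotypes at 23148 and 16976 in WT against 18232 and 17993 in Dhx37-/-. Among the 7 were Opcml, at 399 and 316 against 212 and 190, and Nlgn1, at 268 and 232 against 102 and 156. In all other nuclei Opcml was likewise lower, at 131 and 90.2 against 56.5 and 53.9, as was Nlgn1, at 89.6 and 70.5 against 49.2 and 43.8. Free RNA moved with these too, Opcml at 70.1 and 40.0 in WT and 13.7 and 17.2 in Dhx37-/-. Flagellum genes had 2 higher and 1 lower of 37 (median -0.24), while their sum was higher in Dhx37-/-, at 6161 and 5665 against 6200 and 6367 (difference 371, and 123 without WT library 2 and 619 without WT library 1). Of the other lists, manchette genes had 0 of 24 in either direction (median -0.14), round spermatid factors 0 of 12 (median -0.21), late cytoplasmic genes 1 higher of 21 (median 0.18), meiotic genes 1 lower of 15 (median -0.01) and spermatogonial genes 0 of 8 (median -0.14).

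Genes of p53 and apoptosis (13 of 30 tested) had 1 higher and 0 lower, with a median of 0.01, and the ribosome assembly genes that work with Dhx37 (17 of 31 tested) had 0 in either direction, with a median of -0.25. The sum of all 31 was 572 and 765 in WT against 784 and 818 in Dhx37-/-, of which Fbl alone gave 191 and 375 against 474 and 430. The 10 selecting and 8 excluding genes chose the members, so their levels by genotype are a description, with Gm39204 at 364 and 251 in WT against 186 and 121 in Dhx37-/-. Somatic markers were higher in Dhx37-/- for 7 of 8 Sertoli, 6 of 8 Leydig and 5 of 6 macrophage genes tested (46.5% of all tested genes). Of these, 4, 2 and 3 passed an unadjusted p of 0.05 (4.54% of all tested genes were higher at that limit). Sertoli markers summed to 188 and 142 in WT members against 326 and 316 in Dhx37-/-, beside 703 and 890 against 1793 and 1445 in free RNA. Leydig markers summed to 204 and 47.9 against 200 and 221 in the members, which overlap, and to 550 and 421 against 1024 and 926 in free RNA. Macrophage markers summed to 66.3 and 63.7 against 89.0 and 148 in the members, while free RNA held 210 and 207 against 175 and 193. Of the 2 endothelial and 3 myoid and fibroblast genes tested, 0 passed.

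X-linked genes were more often higher than lower in Dhx37-/-, given as counts with no test of the group. Of 268 tested, 192 were higher and 76 lower in Dhx37-/-, where 46.5% of all tested genes were higher. At an unadjusted p below 0.05 by edgeR, 41 were higher and 3 lower, beside 4.54% and 3.17% of all tested genes. The median log2 change was 0.26 against -0.04 for all genes. The X share of UMIs was 0.860% and 0.768% in the WT members and 1.04% and 1.02% in the Dhx37-/- members (difference 0.212 percentage points, exact permutation p = 0.33, n = 2 per group). The 3 other spermatid sets showed the same order without overlap, and so did free RNA, at 1.25% and 1.24% against 1.49% and 1.49%, whereas Leydig nuclei overlapped at 2.71% and 2.34% against 2.46% and 2.40%. The shift was present among nuclei with no Y UMI (1.26% and 1.30% against 1.71% and 1.61%) and among those with 3 or more. Nuclei with 3 or more Y UMIs made up 44.5% and 50.1% of WT members and 54.6% and 55.6% of Dhx37-/- members, which were deeper. The list of sex-linked spermatid genes (15 of 20 tested) had 4 higher and 0 lower at an unadjusted p below 0.05, Cypt1, Cypt2 and Cypt3 of the X and Zfy1 of the Y, with a median of 0.52. The list sum was also higher without overlap in free RNA, at 922 and 1539 in WT against 1741 and 1665 in Dhx37-/-. In Leydig nuclei it was at 330 and 235 against 449 and 436. The part of that background was not tested.

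Cell-to-cell spread was measured with each member thinned to 1000 UMIs. The mean Fano factor, the variance over the mean across nuclei, averaged over genes at a mean of 0.1 or more, was 1.16 and 1.14 in WT and 1.13 and 1.13 in Dhx37-/-. Thinning itself draws this measure toward 1, and at 2000 UMIs it was 1.27, 1.24, 1.22 and 1.21. The difference of -0.0193 (exact permutation p = 0.33, n = 2 per group) had no overlap, with 2221 to 2394 genes in the average. It was -0.00895 without WT library 1 and -0.0296 without WT library 2.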

How the data were processed

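Per the labels and methods, the authors made droplet (10x) single-nucleus libraries and Cell Ranger count matrices. The matrix header names version 7.2.0, and the submitters' processing notes name bcl2fastq, Seurat 3.1.1 and GRCm38 (mm10), while the methods name a later build. Whether intronic reads were counted is not given in the sources used here. The deposited values are raw UMI counts per gene and barcode, and 52081 of 55357 features matched GENCODE on GRCm38. Members and gene lists were chosen with earlier results of these data known. Counts were summed per library over members and tested in edgeR 4.0.16 (TMM, filterByExpr, quasi-likelihood, Benjamini-Hochberg), with DESeq2 1.42.0 as alternative. List sums, shares and Fano factors were compared by exact permutation over libraries. Named genes were the selecting and excluding genes, Dhx37, the 10 largest changes each way past the threshold or else the 3 smallest p, the 20 highest folds over other nuclei (pseudocount 10 CPM, minimum 50 CPM) and the 5 highest of each step list. Folds between nuclei by Y UMIs used a pseudocount of 20. Doublets were scored with scrublet but kept. On simulated counts edgeR recovered 84.1% of genes changed 4-fold in this comparison (11931 genes run). The simulation gave every gene and library the same spread, a biological coefficient of variation of 22.5%. It therefore does not measure what the fit to the real libraries would recover. In that fit Apoe and Ptgds, at log2 fold changes of 2.38 and 2.25, were not called. Some items are not reported here. The labels number the replicates without saying what a number shares.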

Additional observations from a re-analysis of the deposited data

Results flagged for a closer look

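Barcodes above 5000 detected genes were left out of the members. Among them, 3 in Dhx37-/- library 1 and 7 in Dhx37-/- library 2 met the rule on the selecting and excluding genes, against 2 and 1 in the WT libraries. There were 204 and 302 barcodes over that limit in the Dhx37-/- libraries and 13 and 15 in the WT libraries, and the counts that met the rule are above those of the WT libraries, though they are a smaller share of the barcodes over the limit. These barcodes entered only the alternative fit with no upper limit on genes, which called 0 genes.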

How the results depend on the processing

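The count of genes changed between genotypes, 0 in the edgeR fit, was 28 with no filter on low counts and 5 by DESeq2. It ranged from 0 to 1883 when 1 library was left out, with 1156 without WT library 1, 1883 without WT library 2, 0 without Dhx37-/- library 1 and 1 without Dhx37-/- library 2. With the replicate block it was 0 (657 at an unadjusted p below 0.05). Same-numbered libraries deviated in opposite directions (correlation -0.17), so the crossed pairing was added as a block after seeing the data, and called 43. It was 0 under the 8 other settings. The 6 genes named nearest the threshold (Apoe, Ptgds, Defb19, Gm42826, Cd8b1 and Gm39556) kept their direction under the 16 alternatives, and passed an adjusted p of 0.05 with no filter and without either WT library, as did Tnp2. Dhx37, with few UMIs, changed sign without WT library 1 (log2 change -0.20 against 0.71, and 3.27 without WT library 2). The difference in the share of nuclei was -1.27 percentage points with 3 and -0.218 with 5 selecting genes required, the protamine and transition protein difference was 6545 with members drawn after thinning to 1000 UMIs, and the Fano difference was -0.0373 at 2000 UMIs, and the cause was not tested. The spermatocyte difference of 25.8 took either sign when 1 library was left out (-28.6 to 80.1). The alternatives for X shares were chosen after seeing the data, and kept their direction. With 2 libraries per genotype, exact tests cannot pass 0.05.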

Other observations

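A single autosomal gene differed more than 2-fold between members with 3 or more and with no Y UMIs in each of the 4 libraries. Zfp804b, a zinc finger gene on chromosome 5, was at 573, 556, 533 and 478 CPM in the nuclei with 3 or more Y UMIs of WT 1, WT 2, Dhx37-/- 1 and Dhx37-/- 2, and at 127, 184, 148 and 94.0 in those with none. Gm21679, for which the annotation used here gives no chromosome, was at 104, 139, 180 and 191 against 8.13, 23.0, 13.5 and 34.2. On the other side, Suds3, a subunit of a histone deacetylase complex, was at 323 pooled with no Y UMI against 169, and Vav2, an exchange factor, at 328 against 174, higher in 4 of 4 libraries. These genes were picked after their values were seen.

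Fbl, the nucleolar methyltransferase fibrillarin, stood out among the ribosome assembly genes in the members. It was at 191, 375, 474 and 430 CPM in the 4 libraries, with 273 pooled in the nuclei with the excluding genes, 73.6 in the Foxp2/Cntn3 set and 70.0 in free RNA. For the Rad51b/Pdgfc set only the sum of all 31 ribosome assembly genes is given, 731 pooled, near the 733 of the members. Cdkn1a, a cell cycle inhibitor, was at 15.1 in the members and 49.3 in the nuclei with the excluding genes, against 1.84 and 3.03 in the Foxp2/Cntn3 and Rad51b/Pdgfc sets.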
